A study of Homo sapiens with 12 samples.

Results

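The axon guidance ligands and receptors were measured in 2 human neuroblastoma lines treated with STM2457, a small-molecule inhibitor of METTL3. Members were chosen by gene name: semaphorins, plexins, neuropilins, ephrins, Eph receptors, Slits, Robos, netrins, UNC5 receptors and DCC. The rule matched 71 of the 19923 gene names counted. Of these, 69 are guidance genes, 35 of them ligands and 34 receptors. The other 2, UNC50 and UNC5CL, share the name but are not guidance receptors and were left out of every count; UNC50 changed by -0.67 and -0.08 on the log2 scale in the 2 lines and UNC5CL by -0.23 and 0.39.

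Guidance ligands are displayed or secreted in tissue and steer growing axons and migrating cells by attraction or repulsion. Semaphorins signal through plexins, with neuropilins as co-receptors for most secreted class 3 semaphorins; ephrins bind Eph receptor tyrosine kinases on neighbouring cells and can also signal in reverse; Slits bind Robos; and netrins bind DCC and the UNC5 receptors. Neuroblastoma arises from the sympathetic lineage of the neural crest, whose cells meet semaphorins, ephrins and Slits along their migration routes.

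SK-N-BE2 and NGP are established neuroblastoma cell lines with amplified MYCN, given as wild type in genotype. SK-N-BE2 received 12 µM STM2457 and NGP 1 µM, each for 6 days, and the controls of each line received DMSO for the same time. Each of the 4 groups had 3 libraries of polyadenylated RNA, 12 in all. The lines also came from different sequencing runs, so these cannot be told apart: line, dose and run. Nothing in the descriptions says that replicates were separate cultures, so p-values measure the spread between these libraries, which may be technical.

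The deposited counts summed to between 47242379 and 58159937 reads per library. METTL3, the drug's target, was higher with STM2457 in both lines, by 0.52 on the log2 scale in SK-N-BE2 and 0.92 in NGP (edgeR adjusted p 0.000106 and 0.000300); its transcript level is no measure of enzyme activity. NGP DMSO replicate 1 stood apart, at a root mean square log2 distance of 0.420 from the mean of its group's other libraries, against 0.149 to 0.305 for the other 11 libraries from theirs. In each group, 11 of 12 adrenergic neuroblastoma markers reached at least 1 CPM (CPM, reads scaled to each library's total with edgeR's TMM factors). Summed levels of 5 Schwann cell markers were 3.16 to 3.65 CPM with DMSO and 5.19 to 5.81 with STM2457 in SK-N-BE2, and 1.13 to 1.36 and 0.294 to 0.635 CPM in NGP; of these, ERBB3 rose in SK-N-BE2 and fell in NGP (log2 fold change 1.34 and -1.81, edgeR adjusted p 0.000371 and 0.0124). Those of 6 immune markers were 1.68 to 2.15 and 1.81 to 2.40 CPM in SK-N-BE2 and 0.276 to 1.07 and 1.37 to 1.88 CPM in NGP, and those of 6 epithelial markers 14.4 to 16.9 and 12.8 to 15.1 CPM, and 3.59 to 4.26 and 2.58 to 3.73 CPM. Their part in the results was not tested. Reads of the immune markers PTPRC and CD3E were at 0 in all NGP libraries, but LYZ, the 1 immune marker tested there, rose by 1.40 on the log2 scale. In SK-N-BE2, PTPRC was higher and CD14 lower, of 2 immune markers tested. These 3 changes had an edgeR adjusted p under 0.05, as did 41.7% of all genes tested in NGP and 54.7% in SK-N-BE2.

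Most guidance genes were transcribed in both lines. In SK-N-BE2, 51 of 69 reached a mean of 1 CPM with DMSO and 54 with STM2457, and in NGP 54 and 53 did. Levels of different genes were compared as RPKM, the CPM per kilobase of the gene length in the deposited files. UNC5B, a netrin receptor known as a dependence receptor that can signal cell death when its ligand is missing, had the highest level in the DMSO libraries of both lines, at 55.3 ± 2.03 RPKM in SK-N-BE2 and 73.9 ± 11.1 RPKM in NGP (SD, n = 3). In SK-N-BE2 it was followed by UNC5C at 28.5 ± 4.32, PLXNB2 at 28.1 ± 4.43, SLIT3 at 23.3 ± 0.672 and PLXNA1 at 19.5 ± 1.84 RPKM, of which UNC5C and PLXNB2 differed by less than the SD of either. In NGP the next were PLXNA1 at 41.1 ± 4.81, NRP2 at 31.7 ± 5.07, PLXNB2 at 21.3 ± 0.9551 and UNC5A at 19.5 ± 2.18 RPKM, of which PLXNB2 and UNC5A differed by less than the SD of UNC5A.

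At the other end of the scale, the classical netrin pair of ligand and receptor was nearly absent. NTN1 had 17 reads in total over the 3 DMSO libraries of SK-N-BE2 and 15 with STM2457, and 0 and 2 reads in NGP. DCC had 4 and 2 reads in SK-N-BE2; in NGP it had 48 and 16. EPHA3 had 0 reads in every library, which allows at most 0.0635 CPM in the shallowest one (3 reads; counting error only). SEMA3E had 2 reads with DMSO and 0 with STM2457 in each line.

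**Figure D1:**
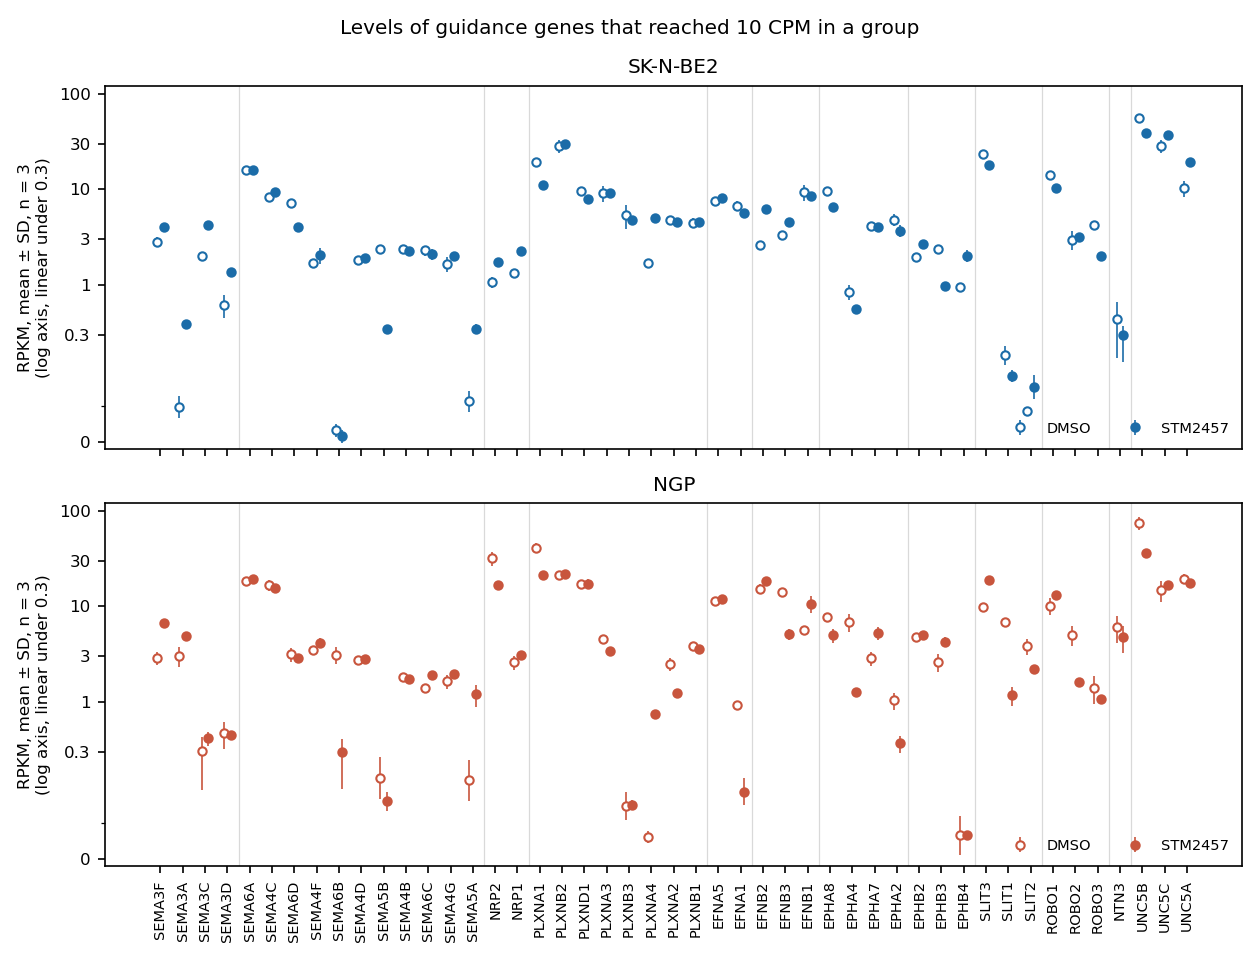
Mean RPKM with SD (n = 3) of the 47 guidance genes that reached a mean of 10 CPM in a group, in SK-N-BE2 (top) and NGP (bottom), with open circles for DMSO and filled circles for STM2457; the axis is logarithmic above 0.3. UNC5B is the highest point in the DMSO groups of both panels, and NRP2, SLIT1 and SLIT2 lie higher in NGP than in SK-N-BE2.

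STM2457 against DMSO was tested in each line on its own 6 libraries with edgeR's quasi-likelihood test, and genes with a Benjamini-Hochberg adjusted p under 0.05 over all genes tested are written as called, higher or lower. In SK-N-BE2, 61 of the 69 members had enough reads to test and 33 were called, 17 higher and 16 lower. That is 54.1% of those tested, against 54.7% of all genes tested, a share near that background; over all genes tested, 26.9% were higher and 27.8% lower. The median absolute log2 fold change was 0.51 over members and 0.37 over all genes, and 26.2% of members against 13.7% of all genes moved by at least 1 on the log2 scale. The libraries of the 2 groups did not overlap for 40 members, while 62.2% of all genes did not overlap. The 8 members with too few reads to test were EPHA3, EPHB6, SEMA3E, SEMA6B, NTN1, NTN4, NTN5 and DCC. In bulk RNA, fewer cells of a type and less RNA per cell cannot be told apart.

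In NGP, 62 members could be tested, of which 30 were called, 11 of them higher and 19 lower. This was 48.4% of those tested, against 41.7% of all genes, of which 19.4% of those tested were higher and 22.2% lower. The median absolute log2 fold change was 0.55 over members and 0.39 over all genes, and 27.4% against 15.6% moved by at least 1. Not tested were EFNA4, EPHA3, EPHB6, SEMA3E, ROBO4, NTN1 and DCC. Libraries of the groups did not overlap for 35 members, against 54.7% of all genes. The median signed change was near 0 for members in both lines, at 0.04 in SK-N-BE2 and -0.03 in NGP, beside -0.02 and -0.03 over all genes. Without DMSO replicate 1, the library that stood apart, 35 of 63 members tested were called in NGP, 14 higher and 21 lower; that was 55.6%, against 57.3% of all genes in the same fit, so the share of members was above that of all genes with this library and not without it.

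Markers of a mesenchymal cell state moved with STM2457 in NGP. The summed level of 12 such markers was 276 to 357 CPM in the NGP DMSO libraries and 867 to 932 CPM with STM2457. Of 9 tested there, 5 were called higher (SNAI2, TWIST1, VIM, FN1 and COL1A1), where 19.4% of all genes were higher. In SK-N-BE2 the summed level was 1247 to 1347 and 1301 to 1417 CPM. Of 11 tested in that line, 5 were higher (WWTR1, FN1, CD44, COL1A1 and THY1) and 1, VIM, lower. Over all genes tested in it, 26.9% were higher and 27.8% lower. Endothelial markers summed to 0.434 to 1.23 CPM with DMSO and 3.41 to 5.34 CPM with STM2457 in NGP, and to 17.2 to 22.8 and 12.7 to 14.8 CPM in SK-N-BE2. Of 3 endothelial markers tested in NGP, 2 were called higher, TEK and KDR, where 19.4% of all genes were higher. Of 6 tested in SK-N-BE2, TEK and CLDN5 were higher and PECAM1, VWF and KDR lower, beside the shares of all genes given above. PECAM1 was at 0 reads in all NGP libraries. The part of these markers in the changes of guidance genes was not tested.

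**Figure D2:**
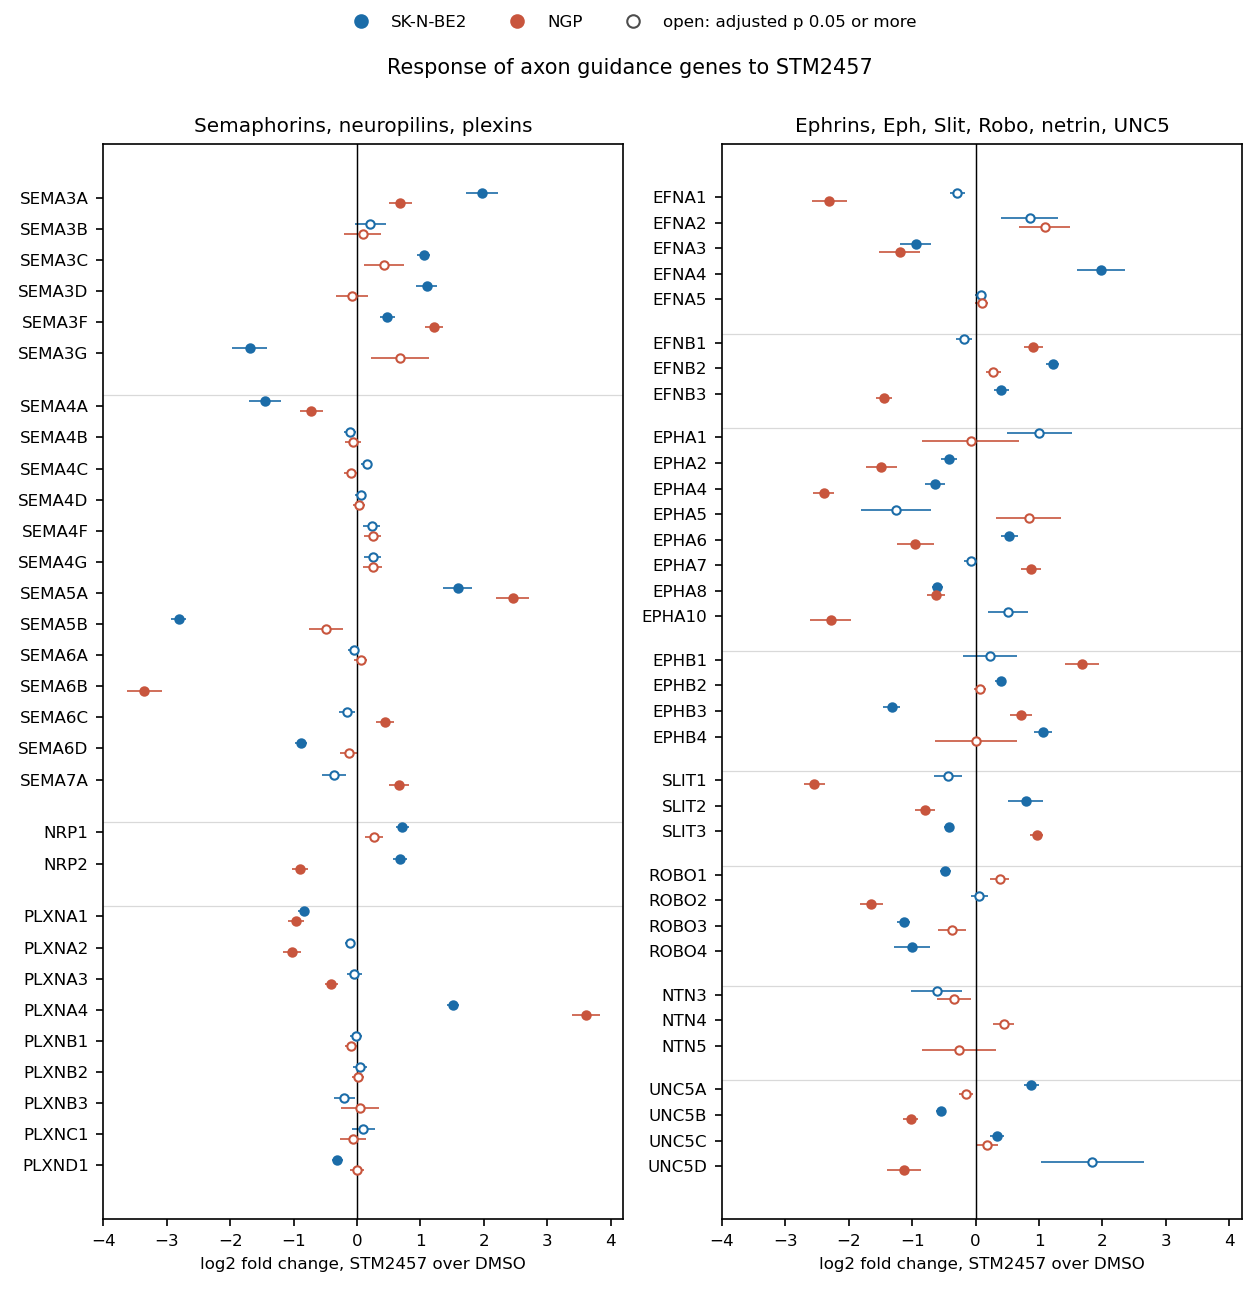
Log2 fold change of STM2457 over DMSO with its standard error for the 64 guidance genes tested in at least 1 line, by family, in SK-N-BE2 (blue) and NGP (red); open circles have an adjusted p of 0.05 or more. PLXNA4 and SEMA5A lie right of 0 in both lines, at 1.51 and 3.61 and at 1.59 and 2.45, while SLIT3 and EPHB3 lie on opposite sides of 0.

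The responses of the lines were set side by side for the 59 members tested in both. Of these, 17 were called in both, or 28.8% against 26.3% of all genes tested in both. The change had the same direction for 11 of the 17. SEMA3F, SEMA5A, SEMA3A and PLXNA4 were higher with STM2457 in both lines, and EPHA2, EPHA8, EFNA3, SEMA4A, EPHA4, PLXNA1 and UNC5B were lower in both. The direction was opposite for 6: NRP2, EPHA6, SLIT2 and EFNB3 rose in SK-N-BE2 and fell in NGP, and EPHB3 and SLIT3 were lower in SK-N-BE2 and higher in NGP. Same-direction calls made up 64.7% of members called in both lines and 81.1% of all genes called in both; over all genes tested in both, 4.96% were called in opposite directions.

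The response in SK-N-BE2 minus that in NGP was then tested over all 12 libraries. It was called for 31 of 64 members, 17 more positive in SK-N-BE2 and 14 more positive in NGP, or 48.4% against 30.9% of all genes (17.0% and 13.9% in these directions). The median absolute difference was 0.93 on the log2 scale over members and 0.43 over all genes, and 46.9% of members against 21.2% of all genes differed by at least 1. Some of these members had few reads in a line and no called difference. They included EFNA4 at -3.43 (0 reads with DMSO and 15 with STM2457 in NGP), ROBO4 at -1.29 (5 and 6 in NGP) and NTN4 at 1.31 (8 and 28 in SK-N-BE2). All 6 members called in opposite directions had a called difference, as did 6 of the 11 called in the same direction. Among the 14 members called in SK-N-BE2 only and the 12 in NGP only, 19 had a called difference. Since dose and run differ between the lines, these differences cannot be told apart from those of dose or run.

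**Figure D3:**
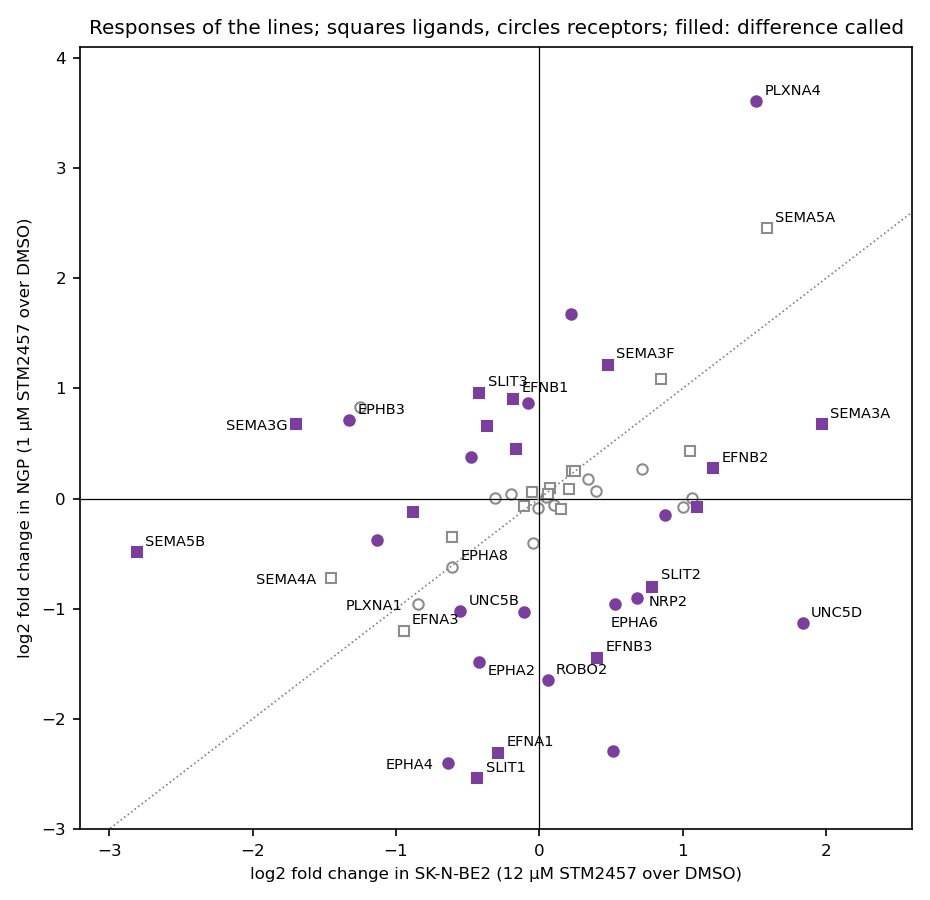
Log2 fold change in NGP against that in SK-N-BE2 for the 59 members tested in both lines, with squares for ligands and circles for receptors; filled symbols mark a called difference between lines and the dotted line marks equal change. PLXNA4 and SEMA5A are the 2 highest points, and SLIT2, NRP2, EPHA6 and EFNB3 lie right of 0 and below 0.

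The promoters of 4 members are shown as examples of these patterns: PLXNA4 rose in both lines, EPHA8 fell in both, and SLIT3 and EPHB3 moved in opposite directions. The sequences are the 250 bases before the RefSeq start (GRCh38.p14), read 5′ to 3′ on the strand of the gene. Capitals mark CACGTG, the E-box letters that MYC-family proteins can bind; where there are no capitals the window does not hold it. The windows are chr7:132576471-132576720 (minus strand) for PLXNA4, chr1:22563239-22563488 (plus strand) for EPHA8, chr5:169301140-169301389 (minus strand) for SLIT3 and chr3:184561535-184561784 (plus strand) for EPHB3. The PLXNA4 window lies inside the span of the deposited gene model, whose far end is at 132648688.
PLXNA4: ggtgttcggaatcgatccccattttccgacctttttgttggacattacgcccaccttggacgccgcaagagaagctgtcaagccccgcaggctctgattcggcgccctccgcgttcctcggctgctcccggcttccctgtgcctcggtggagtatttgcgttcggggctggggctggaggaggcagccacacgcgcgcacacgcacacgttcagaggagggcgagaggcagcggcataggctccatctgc
EPHA8: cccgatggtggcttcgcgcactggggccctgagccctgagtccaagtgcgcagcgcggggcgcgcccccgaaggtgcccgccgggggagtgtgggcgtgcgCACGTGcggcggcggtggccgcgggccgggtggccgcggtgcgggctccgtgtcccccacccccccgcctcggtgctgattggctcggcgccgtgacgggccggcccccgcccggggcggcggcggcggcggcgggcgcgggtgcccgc
SLIT3: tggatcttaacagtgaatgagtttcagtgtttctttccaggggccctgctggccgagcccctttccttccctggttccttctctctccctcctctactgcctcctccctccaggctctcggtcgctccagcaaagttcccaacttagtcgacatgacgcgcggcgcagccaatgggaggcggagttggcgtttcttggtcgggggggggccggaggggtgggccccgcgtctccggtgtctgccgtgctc
EPHB3: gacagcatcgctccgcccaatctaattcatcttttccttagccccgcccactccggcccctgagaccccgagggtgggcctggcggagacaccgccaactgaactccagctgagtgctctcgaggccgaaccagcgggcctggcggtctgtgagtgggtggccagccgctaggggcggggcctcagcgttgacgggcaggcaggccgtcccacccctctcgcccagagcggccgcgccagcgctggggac
Of the 4 windows, that of EPHA8 holds the letters, 149 bases before the start. RefSeq windows were found for 59 of the 69 members, 91 windows in all. CACGTG, which reads the same on both strands, was in 4 of the 91 (4.40%), in windows of EPHA8, SEMA3E, SEMA4D and SEMA6D, against 6.34% of 35116 windows of all genes. TGATGNAA, letters of the CHOP and ATF4 element, was searched on both strands and found in 2 of the 91 (2.20%), of SEMA3C and SEMA4A, against 3.14% of all windows. The median GC content was 65.2% over member windows and 58% over all.

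Among the ligands, 15 of 30 tested were called in SK-N-BE2, 9 higher and 6 lower, and 14 of 32 in NGP, 7 higher and 7 lower. These shares, 50.0% and 43.8%, were near the 54.7% and 41.7% of all genes. Of the 6 secreted class 3 semaphorins tested, 4 were higher and 1 lower in SK-N-BE2, where 26.9% of all genes were higher and 27.8% lower, and 2 were higher in NGP, or 33.3% against 41.7% of all genes called. Their summed level was 6.53, 6.61 and 6.55 RPKM in the SK-N-BE2 DMSO libraries and 10.9, 11.4 and 10.2 with STM2457, and 6.28, 7.40 and 7.46 RPKM in NGP with DMSO and 12.8, 13.3 and 12.4 with STM2457.

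SEMA3A (chr7:83955777-84492724, minus strand), a repellent of sensory and sympathetic axons, measured 0.949, 1.18 and 0.613 CPM in the SK-N-BE2 DMSO libraries and 3.78, 3.88 and 3.38 CPM with STM2457 (log2 fold change of 1.97 ± 0.25 SE, adjusted p 2.09e-05 by edgeR). In NGP, where its level was higher throughout, it measured 20.7, 33.4 and 31.0 CPM with DMSO and 51.0, 41.4 and 43.6 CPM with STM2457 (log2 fold change of 0.68 ± 0.18 SE, adjusted p 0.0167 by edgeR). The groups did not overlap in either line, and the rise was larger in SK-N-BE2 (difference 1.31, edgeR adjusted p 0.00373). The call in NGP was lost without STM2457 replicate 1 (edgeR adjusted p 0.0718; range over 13 alternatives 0.00172 to 0.0718). SEMA3F (chr3:50155045-50189075, plus strand), a ligand of NRP2, went from 12.1, 13.8 and 15.3 to 20.2, 21.2 and 17.6 CPM in SK-N-BE2 (log2 fold change of 0.48 ± 0.12 SE, adjusted p 0.00353 by edgeR). It went from 15.9, 11.8 and 14.0 to 30.4, 35.6 and 30.7 CPM in NGP (log2 fold change of 1.22 ± 0.14 SE, adjusted p 0.000329 by edgeR), again with no overlap, and here the larger rise was in NGP (difference -0.72, edgeR adjusted p 0.0110).

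SEMA3C and SEMA3D, which act on neural crest and endothelial cells, rose in SK-N-BE2. SEMA3C (chr7:80742538-80922359, minus strand) measured 13.3, 12.5 and 11.2 CPM with DMSO and 25.3, 28.0 and 25.4 CPM with STM2457 (log2 fold change of 1.05 ± 0.10 SE, adjusted p 2.52e-06 by edgeR), and SEMA3D (chr7:84995553-85186855, minus strand) measured 6.31, 4.95 and 3.68 and 10.7, 10.98 and 11.2 CPM (log2 fold change of 1.10 ± 0.17 SE, adjusted p 0.000109 by edgeR). All treated libraries lay above all controls for both genes. In NGP neither was called: SEMA3C was at 1.90 ± 0.719 CPM with DMSO and 2.55 ± 0.424 CPM with STM2457, and SEMA3D at 3.83 ± 1.21 and 3.62 ± 0.286 CPM (SD, n = 3). The difference between lines was called for SEMA3D (1.19, edgeR adjusted p 0.0127) and not for SEMA3C (0.63, edgeR adjusted p 0.136), although for SEMA3C it was called without NGP DMSO replicate 1 (0.00209; range over 18 alternatives 0.00209 to 0.318).

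SEMA3G (chr3:52433035-52445103, minus strand), a ligand with vascular roles, was the class 3 member that fell. It measured 2.23, 3.37 and 2.36 CPM in SK-N-BE2 with DMSO and 0.999, 0.863 and 0.652 CPM with STM2457 (log2 fold change of -1.69 ± 0.27 SE, adjusted p 0.000152 by edgeR), all treated libraries lying below all controls. In NGP it measured 0.278, 0.710 and 0.703 and 0.572, 1.28 and 0.853 CPM, overlapping between groups (log2 fold change of 0.68 ± 0.46 SE, adjusted p 0.266 by edgeR), and the difference between lines was -2.36 (edgeR adjusted p 0.00444). SEMA3B was called in neither line, at 0.21 and 0.09 on the log2 scale.

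The semaphorins of classes 4 to 7 are bound to the membrane. In SK-N-BE2, 1 of 12 tested was higher and 3 were lower, or 33.3% called against 54.7% of all genes. In NGP, 3 of 13 were higher and 2 lower, or 38.5% against 41.7%. SEMA6A (chr5:116443616-116574934, minus strand), a transmembrane ligand of A-type plexins and the class's highest gene in both lines, did not pass the test in either. Its level was 192, 168 and 169 CPM with DMSO and 169, 179 and 174 CPM after STM2457 in SK-N-BE2, and 179, 221 and 208 and 207, 213 and 213 CPM in NGP. The groups overlapped in both lines, at log2 fold changes of -0.05 and 0.06 (SE 0.08 and 0.10; edgeR adjusted p 0.606 and 0.668).

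SEMA5A and SEMA5B are paralogs with thrombospondin repeats, and they moved in opposite directions in SK-N-BE2. SEMA5A (chr5:9035033-9546075, minus strand) measured 1.37, 1.06 and 1.78 CPM with DMSO and 4.15, 3.88 and 4.95 CPM with STM2457 (log2 fold change of 1.59 ± 0.22 SE, adjusted p 5.60e-05 by edgeR), while SEMA5B (chr3:122909082-123028605, minus strand) measured 19.6, 21.6 and 20.3 and 3.20, 2.78 and 3.01 CPM (log2 fold change of -2.81 ± 0.12 SE, adjusted p 1.29e-09 by edgeR). The fall of SEMA5B, 7.002-fold, was the largest called in that line among members with at least 2 CPM in the higher group. In NGP, SEMA5A rose from 1.95, 2.84 and 3.36 to 17.7, 10.4 and 16.4 CPM (log2 fold change of 2.45 ± 0.26 SE, adjusted p 0.000210 by edgeR), and SEMA5B was low in both groups at 1.59, 2.51 and 1.70 and 1.33, 1.18 and 1.61 CPM, overlapping (log2 fold change of -0.49 ± 0.27 SE, adjusted p 0.184 by edgeR). The difference between lines was called for SEMA5B (-2.31, edgeR adjusted p 1.98e-05) and not for SEMA5A (-0.86, edgeR adjusted p 0.0824), where it was called without NGP STM2457 replicate 2 (0.0298; range over 18 alternatives 0.0298 to 0.209).

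SEMA6B (chr19:4542593-4559684, minus strand), another ligand of A-type plexins, had the largest fall in NGP. It measured 15.7, 10.4 and 14.0 CPM with DMSO and 0.931, 1.83 and 1.16 CPM with STM2457, a 10.2-fold fall with no overlap (log2 fold change of -3.35 ± 0.28 SE, adjusted p 5.61e-05 by edgeR). In SK-N-BE2 it had too few reads to test, 22 with DMSO and 10 with STM2457 over 3 libraries each. SEMA4A (chr1:156147366-156177752, plus strand), a ligand also known in immune cells, fell in both lines, from 2.78, 5.68 and 3.70 to 1.44, 1.67 and 1.44 CPM in SK-N-BE2 (log2 fold change of -1.45 ± 0.26 SE, adjusted p 0.000364 by edgeR) and from 4.30, 3.55 and 4.101 to 2.39, 2.27 and 2.56 CPM in NGP (log2 fold change of -0.72 ± 0.18 SE, adjusted p 0.0123 by edgeR). All treated libraries lay below the controls in both lines; the call in NGP was lost without STM2457 replicate 1 (edgeR adjusted p 0.0513; range over 13 alternatives 0.00296 to 0.0513).

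SEMA6D (chr15:47184101-47774223, plus strand), a ligand of PLXNA1, fell in SK-N-BE2 from 63.8, 64.2 and 56.8 to 32.9, 37.4 and 32.6 CPM (log2 fold change of -0.88 ± 0.09 SE, adjusted p 3.96e-06 by edgeR), with no overlap. In NGP it measured 21.9, 30.8 and 28.5 and 25.6, 24.0 and 24.7 CPM (log2 fold change of -0.13 ± 0.14 SE, adjusted p 0.511 by edgeR), and was called lower there without DMSO replicate 1 (edgeR adjusted p 0.0246; range over 13 alternatives 0.0246 to 0.916). SEMA7A, the lipid-anchored class 7 member, rose in NGP by 0.66 as a log2 value (edgeR adjusted p 0.00983), and SEMA6C by 0.45 (edgeR adjusted p 0.0327). The SEMA6C call was lost with a replicate block and without any of DMSO replicate 3 and STM2457 replicates 1, 2 and 3 (edgeR adjusted p up to 0.118, from 0.0100, over 13 alternatives). SEMA4B, SEMA4C, SEMA4D, SEMA4F and SEMA4G were called in neither line, with log2 fold changes between -0.11 and 0.25 in SK-N-BE2 and between -0.09 and 0.25 in NGP; of these, SEMA4F was called higher in SK-N-BE2 without STM2457 replicate 3 (0.0298; range 0.0298 to 0.546) and in NGP without DMSO replicate 1 (0.0304; range 0.0304 to 0.398), all edgeR adjusted p. SEMA4G shares 27.4% of its exon length with MRPL43 on the other strand, and strand was not used in counting, so its values are uncertain.

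The ephrin-A ligands are lipid-anchored and bind mainly EphA receptors. They gave 1 higher and 1 lower of 5 tested in SK-N-BE2, and 2 lower of 4 in NGP. That was 40.0% and 50.0% called, against 54.7% and 41.7% of all genes, over few genes. EFNA1 (chr1:155127876-155134899, plus strand) measured 2.15, 1.89 and 2.07 CPM in NGP with DMSO and 0.466, 0.315 and 0.446 CPM with STM2457, with no overlap (log2 fold change of -2.31 ± 0.28 SE, adjusted p 0.000404 by edgeR). In SK-N-BE2 it measured 13.1, 14.5 and 16.3 and 13.7, 11.2 and 11.9 CPM and overlapped (log2 fold change of -0.29 ± 0.12 SE, adjusted p 0.0573 by edgeR). The difference between lines was 2.03 (edgeR adjusted p 3.56e-05). EFNA1 passed in SK-N-BE2 as lower without DMSO replicate 1 (0.0235) or STM2457 replicate 1 (0.0415), with adjusted p by edgeR or DESeq2 from 0.0235 to 0.209 over 13 alternatives. EFNA5 (chr5:107376889-107670937, minus strand), a repellent in topographic maps and the family's highest gene in both lines, did not pass in either: it measured 42.0, 47.03 and 40.5 CPM with DMSO and 45.7, 48.6 and 45.9 CPM after STM2457 in SK-N-BE2, and 64.6, 68.4 and 61.5 and 68.7, 64.2 and 74.3 CPM in NGP, at log2 fold changes of 0.08 and 0.09 (SE 0.09 and 0.10).

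EFNA3 and EFNA4 lie side by side on chromosome 1 and share 43.9% and 15.0% of their exon length with a readthrough gene, EFNA4-EFNA3, so their reads cannot be fully separated. EFNA3 (chr1:155078837-155087538, plus strand) fell in SK-N-BE2 from 2.90, 2.03 and 2.78 to 1.20, 1.20 and 1.71 CPM (log2 fold change of -0.95 ± 0.24 SE, adjusted p 0.00509 by edgeR), and in NGP from 0.9546, 0.789 and 1.23 to 0.381, 0.463 and 0.446 CPM (log2 fold change of -1.20 ± 0.33 SE, adjusted p 0.0184 by edgeR). Neither line's groups overlapped. The call in NGP was lost without DMSO replicate 3 (0.0821), STM2457 replicate 1 (0.0698) or STM2457 replicate 3 (0.0580), with adjusted p by edgeR or DESeq2 from 0.00525 to 0.0821 over 12 alternatives. EFNA4 moved the other way: it measured 0.334, 0.203 and 0.307 CPM in SK-N-BE2 with DMSO and 0.833, 1.41 and 1.21 CPM with STM2457 (log2 fold change of 1.98 ± 0.38 SE, adjusted p 0.000616 by edgeR). In NGP, EFNA4 had 0 reads with DMSO and 15 with STM2457 over 3 libraries each. With 3 reads in place of 0, the ratio was 5.20, which leaves out the counting error of the 15 reads. EFNA2 was called in neither line, at 0.85 and 1.09 on the log2 scale; in NGP it passed without DMSO replicate 1 (0.0421), in the joint fit (0.0482), with halved counts (0.0436) and with DESeq2 (0.0434; range of adjusted p, by edgeR unless named, over 12 alternatives 0.0421 to 0.181).

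The ephrin-B ligands are transmembrane proteins that can signal in both directions. They included 2 higher of 3 in SK-N-BE2, and 1 higher and 1 lower of 3 in NGP. The share called was 66.7% in each line, against 54.7% and 41.7% of all genes, over few genes. EFNB2 (chr13:106489745-106535662, minus strand), also a ligand of EPHB4 in vessels, measured 14.1, 12.8 and 12.2 CPM with DMSO and 31.4, 31.3 and 30.03 CPM after STM2457 in SK-N-BE2 (log2 fold change of 1.21 ± 0.10 SE, adjusted p 3.78e-07 by edgeR). In NGP it measured 67.2, 74.6 and 85.2 and 89.6, 98.3 and 87.2 CPM (log2 fold change of 0.28 ± 0.12 SE, adjusted p 0.0820 by edgeR); treated libraries lay above controls in both lines, and the difference was 0.94 (edgeR adjusted p 0.000233). The joint fit of 12 libraries called it higher in NGP (edgeR adjusted p 0.0209; range over 13 alternatives 0.0209 to 0.189). A long noncoding RNA on the other strand covers 36.4% of its exon length, so its reads are uncertain. EFNB3 (chr17:7705202-7711372, plus strand), a midline repellent of the spinal cord, moved oppositely in the lines. It measured 11.5, 11.1 and 9.89 and 15.8, 15.4 and 12.9 CPM in SK-N-BE2 (log2 fold change of 0.41 ± 0.12 SE, adjusted p 0.00973 by edgeR), and fell from 47.7, 42.8 and 44.8 to 15.7, 19.0 and 15.0 CPM in NGP (log2 fold change of -1.44 ± 0.13 SE, adjusted p 7.48e-05 by edgeR). Without STM2457 replicate 1 the SK-N-BE2 rise was not called (edgeR adjusted p 0.0504; range over 13 alternatives 0.00577 to 0.0504). EFNB1 (chrX:68829021-68842160, plus strand) measured 26.5, 29.0 and 37.3 and 29.9, 25.8 and 27.9 CPM in SK-N-BE2, overlapping (log2 fold change of -0.18 ± 0.12 SE, adjusted p 0.223 by edgeR), and rose in NGP from 19.3, 18.7 and 18.3 to 30.7, 43.0 and 31.8 CPM with no overlap (log2 fold change of 0.91 ± 0.15 SE, adjusted p 0.00167 by edgeR).

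The 3 Slit genes encode secreted repellents, and all 3 had a called difference between the lines, where 30.9% of all genes did. SLIT3 (chr5:168661733-169301129, minus strand) was abundant in both. In SK-N-BE2 it measured 343, 325 and 328 CPM with DMSO and 257, 266 and 241 CPM with STM2457 (log2 fold change of -0.42 ± 0.08 SE, adjusted p 0.000653 by edgeR). In NGP it rose from 130.2, 155 and 135 to 261, 286 and 268 CPM (log2 fold change of 0.96 ± 0.10 SE, adjusted p 0.000193 by edgeR), so that treated libraries of the lines reached similar levels. SLIT1 (chr10:96998038-97185959, minus strand) was mainly an NGP gene, at 58.01, 69.8 and 60.7 CPM with DMSO and 9.25, 13.6 and 9.50 CPM with STM2457 (log2 fold change of -2.54 ± 0.17 SE, adjusted p 2.61e-05 by edgeR). In SK-N-BE2 it measured 1.97, 2.48 and 2.22 and 1.54, 1.84 and 1.69 CPM (log2 fold change of -0.43 ± 0.22 SE, adjusted p 0.111 by edgeR), where treated libraries also lay below controls. The differences between lines were -1.37 for SLIT3 and 2.12 for SLIT1 (edgeR adjusted p 2.81e-06 and 1.69e-05).

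SLIT2 (chr4:20251905-20620561, plus strand) measured 34.3, 50.6 and 43.2 CPM in NGP with DMSO and 22.7, 26.7 and 24.1 CPM with STM2457 (log2 fold change of -0.80 ± 0.15 SE, adjusted p 0.00385 by edgeR). It was low in SK-N-BE2, at 0.843, 1.10 and 0.958 and 1.65, 1.37 and 2.11 CPM (log2 fold change of 0.79 ± 0.28 SE, adjusted p 0.0266 by edgeR). The difference between lines was 1.60 (edgeR adjusted p 0.000378). The call in SK-N-BE2 was lost without DMSO replicate 1 (0.0723), DMSO replicate 3 (0.0602), STM2457 replicate 1 (0.0566) or STM2457 replicate 3 (0.133), with adjusted p by edgeR or DESeq2 from 0.00490 to 0.133 over 13 alternatives. Summed over the 3 genes, the level was 23.6 ± 0.636 RPKM with DMSO and 18.2 ± 0.835 RPKM with STM2457 in SK-N-BE2, and 20.5 ± 2.29 and 22.4 ± 1.36 RPKM in NGP (SD, n = 3).

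Of the netrins, NTN3 had enough reads to test in both lines and NTN4 and NTN5 in NGP, and the smallest edgeR adjusted p was that of NTN4. NTN3, the highest of them by RPKM, measured 1.23, 0.447 and 1.26 CPM with DMSO and 0.777, 0.470 and 0.729 CPM after STM2457 in SK-N-BE2, and 10.7, 11.01 and 17.9 and 8.997, 14.0 and 8.04 CPM in NGP. Its groups overlapped in both lines; in SK-N-BE2 it was called lower without DMSO replicate 2 (edgeR adjusted p 0.0326; range over 12 alternatives 0.0326 to 0.513). NTN4, which also binds laminin in basement membranes, measured 5.15, 6.43 and 6.54 and 9.36, 7.32 and 7.93 CPM in NGP (log2 fold change of 0.44 ± 0.17 SE, adjusted p 0.0611 by edgeR), with treated libraries above controls, and was called higher with DESeq2 (adjusted p 0.0373; range over 13 alternatives 0.0373 to 0.229). NTN5 had 64 reads with DMSO and 20 with STM2457 in SK-N-BE2, a ratio of 0.315 (95% interval 0.180 to 0.527, counting error only), with 0.176, 0.284 and 0.766 CPM in the DMSO libraries.

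**Figure D4:**
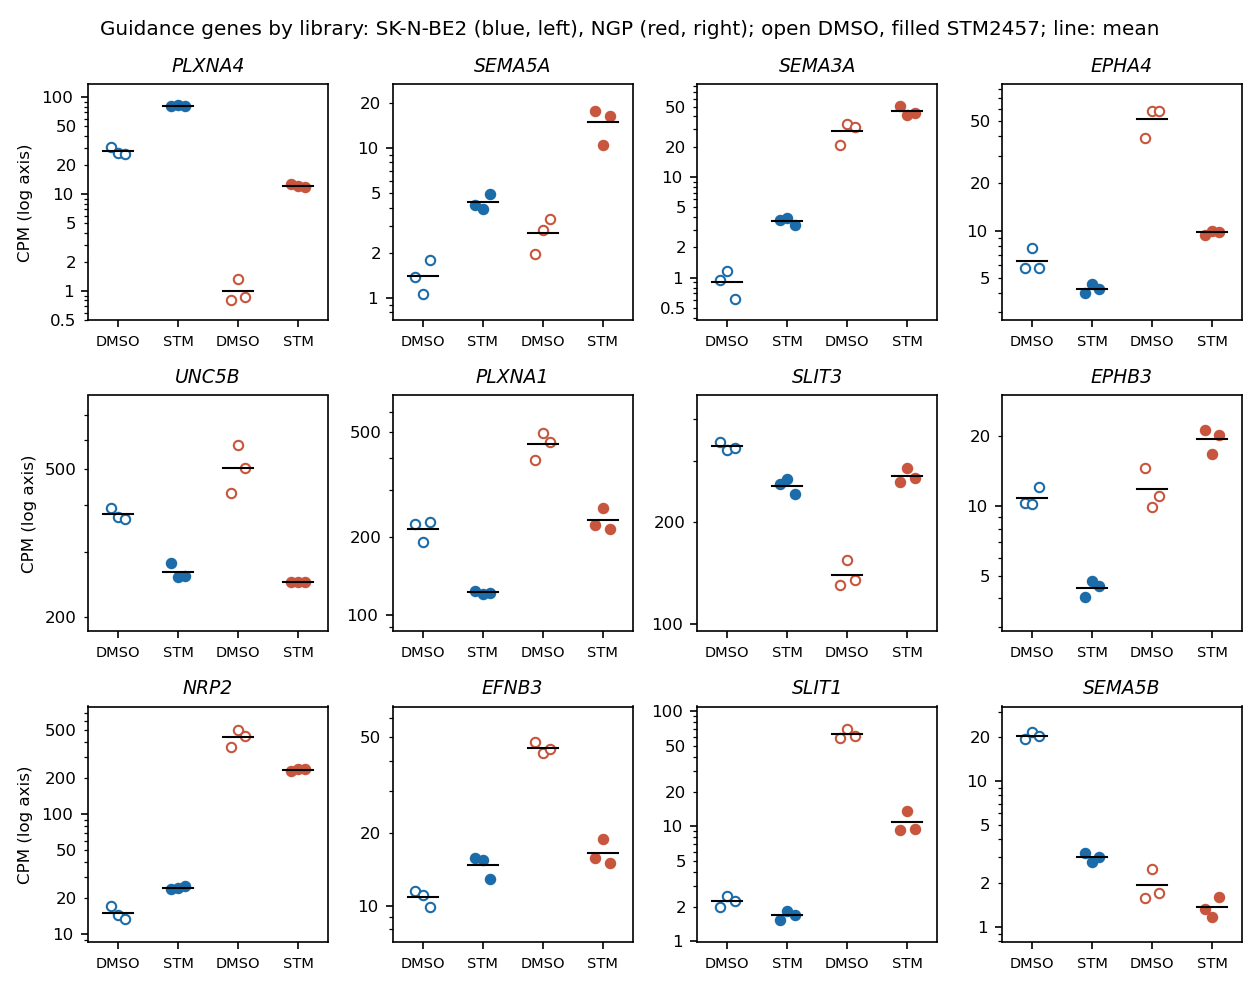
CPM of 12 guidance genes in each library on a log axis, SK-N-BE2 in blue and NGP in red, open circles for DMSO, filled circles for STM2457 and a line at the mean of 3 libraries. PLXNA4, SEMA5A and SEMA3A are higher with STM2457 in both lines, EPHA4, UNC5B and PLXNA1 are lower in both, and SLIT3, EPHB3, NRP2 and EFNB3 change in opposite directions.

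Among the receptors, 18 of 31 tested were called in SK-N-BE2, 8 higher and 10 lower, and 16 of 30 in NGP, 4 higher and 12 lower. The share called was 58.1% in SK-N-BE2, near the 54.7% of all genes, and 53.3% in NGP against 41.7%; 22.2% of all genes were lower in NGP. The neuropilins, co-receptors for class 3 semaphorins and VEGF, both rose in SK-N-BE2. NRP1 (chr10:33177492-33336262, minus strand) measured 15.0, 17.0 and 14.7 CPM with DMSO and 24.2, 27.7 and 26.7 CPM with STM2457 (log2 fold change of 0.71 ± 0.10 SE, adjusted p 6.77e-05 by edgeR), and NRP2 (chr2:205681990-205798133, plus strand) measured 17.0, 14.4 and 13.3 and 23.9, 24.2 and 25.2 CPM (log2 fold change of 0.68 ± 0.11 SE, adjusted p 0.000150 by edgeR). In NGP, NRP2 was far more abundant and fell, from 365, 505 and 451 to 229, 239 and 238 CPM (log2 fold change of -0.90 ± 0.13 SE, adjusted p 0.000776 by edgeR). NRP1 measured 23.9, 33.5 and 32.6 and 34.3, 36.2 and 37.8 CPM there (log2 fold change of 0.27 ± 0.14 SE, adjusted p 0.167 by edgeR). The groups did not overlap for either gene in either line. The difference between lines was 1.59 for NRP2 (edgeR adjusted p 9.19e-06); for NRP1 it was 0.46 (0.0659), and passed without NGP DMSO replicate 1 (edgeR adjusted p 0.00277; range over 18 alternatives 0.00277 to 0.167).

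The plexins are the signalling receptors for semaphorins. They gave 1 higher and 2 lower of 9 in SK-N-BE2, and 1 higher and 3 lower of 9 in NGP. That was 33.3% and 44.4% called, against 54.7% and 41.7% of all genes. PLXNA4 (chr7:132123332-132648688, minus strand), a receptor for SEMA3A with neuropilins and for class 6 semaphorins, had the largest rise of any member tested in NGP. There it measured 0.815, 1.34 and 0.859 CPM with DMSO and 12.9, 12.2 and 11.7 CPM with STM2457, a 12.2-fold rise (log2 fold change of 3.61 ± 0.22 SE, adjusted p 1.38e-05 by edgeR). In SK-N-BE2 it started higher, at 31.0, 26.5 and 26.1 CPM, and reached 81.6, 82.7 and 80.5 CPM (log2 fold change of 1.51 ± 0.09 SE, adjusted p 2.67e-08 by edgeR). The groups did not overlap in either line, and the rise differed between lines (-2.08, edgeR adjusted p 5.14e-06).

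PLXNA1 (chr3:126988594-127037392, plus strand), a receptor for class 3 and class 6 semaphorins and the highest plexin in NGP, fell in both lines. It measured 224, 191 and 227 CPM with DMSO and 124, 121 and 121 CPM after STM2457 in SK-N-BE2 (log2 fold change of -0.84 ± 0.09 SE, adjusted p 3.43e-06 by edgeR), and 393, 496 and 461 and 222, 258 and 214 CPM in NGP (log2 fold change of -0.96 ± 0.12 SE, adjusted p 0.000499 by edgeR). The difference between lines was 0.13 (SE 0.15, edgeR adjusted p 0.564). PLXNA2 fell in NGP from 34.8 ± 5.25 to 17.1 ± 1.83 CPM (SD, n = 3; log2 fold change of -1.03 ± 0.15 SE, adjusted p 0.000865 by edgeR) but was not called in SK-N-BE2 (-0.11). PLXND1, the receptor for SEMA3E, fell by 0.31 on the log2 scale in SK-N-BE2 (edgeR adjusted p 0.00525). PLXNA3 fell by 0.41 in NGP (edgeR adjusted p 0.0121), which was lost without STM2457 replicate 1 (0.0538) or 3 (0.0756; range over 13 alternatives 0.00182 to 0.0756, edgeR adjusted p).

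PLXNB2 (chr22:50274979-50307646, minus strand), a class 4 semaphorin receptor and the highest plexin in SK-N-BE2, measured 222, 167 and 224 CPM with DMSO and 228, 205 and 215 CPM with STM2457 there, and 161, 147 and 158 and 155, 172 and 143 CPM in NGP. Groups overlapped in both lines, and the log2 fold changes were 0.04 and 0.02 (SE 0.11 and 0.10). PLXNB1, PLXNB3 and PLXNC1 were called in neither line either. In SK-N-BE2, PLXNB3 and PLXNA3 were called without DMSO replicate 2 (edgeR adjusted p 0.00441 and 0.0400; ranges over 13 alternatives 0.00441 to 0.863 and 0.0400 to 0.987). PLXNB3 shares 20.4% of its exon length with SRPK3 and its values are uncertain.

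Of the EphA receptors, 3 of 8 tested were lower and 1 higher in SK-N-BE2, or 50.0% called against 54.7% of all genes. In NGP, 5 of 8 were lower and 1 higher, or 75.0% against 41.7%, over few genes. Their summed level was 20.5 ± 1.07 RPKM with DMSO and 16.3 ± 0.107 RPKM with STM2457 in SK-N-BE2, and 19.0 ± 1.43 and 12.3 ± 0.461 RPKM in NGP (SD, n = 3). EPHA8 (chr1:22563489-22603595, plus strand), the highest of them in both lines, measured 52.7, 48.8 and 55.9 CPM with DMSO and 35.5, 35.5 and 34.9 CPM after STM2457 in SK-N-BE2 (log2 fold change of -0.61 ± 0.09 SE, adjusted p 5.38e-05 by edgeR), and 45.8, 37.8 and 41.4 and 24.8, 32.3 and 24.3 CPM in NGP (log2 fold change of -0.62 ± 0.14 SE, adjusted p 0.00891 by edgeR). The groups did not overlap, and the difference between lines was 0.02 (SE 0.17, edgeR adjusted p 0.949).

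EPHA4 (chr2:221418027-221574202, minus strand), which binds both ephrin classes, had the largest fall of the EphA receptors tested in NGP. It measured 38.8, 57.6 and 57.6 CPM with DMSO and 9.36, 9.99 and 9.85 CPM with STM2457, a 5.26-fold fall (log2 fold change of -2.40 ± 0.17 SE, adjusted p 3.05e-05 by edgeR). In SK-N-BE2 it went from 5.80, 7.71 and 5.79 to 3.96, 4.53 and 4.22 CPM (log2 fold change of -0.64 ± 0.16 SE, adjusted p 0.00421 by edgeR). There was no overlap in either line, and the difference was 1.77 (edgeR adjusted p 5.93e-05). EPHA2 (chr1:16124337-16156069, minus strand), a receptor for EFNA1 studied in many tumours, measured 3.84, 5.33 and 3.79 and 1.61, 1.81 and 1.20 CPM in NGP (log2 fold change of -1.49 ± 0.24 SE, adjusted p 0.00168 by edgeR). In SK-N-BE2 it measured 19.2, 17.4 and 23.1 and 17.4, 13.1 and 15.3 CPM, where the groups overlapped (log2 fold change of -0.42 ± 0.13 SE, adjusted p 0.0156 by edgeR). That call was lost in the joint fit of 12 libraries (0.0904) and without DMSO replicate 3 (0.0866) or STM2457 replicate 2 (0.0859), with adjusted p by edgeR or DESeq2 from 0.00751 to 0.0904 over 13 alternatives.

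EPHA7 (chr6:93240020-93419559, minus strand), a receptor with roles in cortical maps, was the EphA gene that rose in NGP, from 17.4, 23.3 and 23.7 to 38.8, 33.5 and 45.2 CPM (log2 fold change of 0.87 ± 0.16 SE, adjusted p 0.00317 by edgeR). It overlapped in SK-N-BE2, at 30.1, 33.6 and 30.2 and 26.7, 32.1 and 32.2 CPM (log2 fold change of -0.08 ± 0.10 SE, adjusted p 0.526 by edgeR). EPHA6 rose in SK-N-BE2 from 5.32 ± 0.196 to 7.88 ± 0.626 CPM and fell in NGP from 1.92 ± 0.556 to 0.989 ± 0.0751 CPM (SD, n = 3), with log2 fold changes of 0.53 and -0.95 (edgeR adjusted p 0.00391 and 0.0295). The call in NGP was lost with a replicate block and without any of DMSO replicates 2 and 3 and STM2457 replicates 1, 2 and 3 (edgeR adjusted p up to 0.111, from 0.00322, over 13 alternatives). EPHA10, a member without kinase activity, fell in NGP from 1.62 ± 0.376 to 0.330 ± 0.0552 CPM (log2 fold change of -2.29 ± 0.33 SE, adjusted p 0.000882 by edgeR). EPHA1 and EPHA5 were called in neither line; EPHA5 was called lower in SK-N-BE2 without DMSO replicate 1 (0.0444; range 0.0444 to 0.258) and higher in NGP without DMSO replicate 3 (0.0258; range 0.0258 to 0.404), all edgeR adjusted p.

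Among the EphB receptors, 2 of 4 tested were higher and 1 lower in SK-N-BE2, and 2 of 4 were higher in NGP. That was 75.0% and 50.0% called, against 54.7% and 41.7% of all genes, over few genes. EPHB3 (chr3:184561785-184582408, plus strand), a receptor for ephrin-B ligands, fell in SK-N-BE2 from 10.3, 10.2 and 12.1 to 4.07, 4.74 and 4.53 CPM (log2 fold change of -1.33 ± 0.13 SE, adjusted p 3.05e-06 by edgeR) and rose in NGP from 14.6, 9.92 and 11.01 to 21.2, 16.7 and 20.3 CPM (log2 fold change of 0.72 ± 0.17 SE, adjusted p 0.0108 by edgeR). No groups overlapped, and the difference was -2.03 (edgeR adjusted p 1.67e-05). The call in NGP was lost without STM2457 replicate 1 (edgeR adjusted p 0.0508; range over 13 alternatives 0.000310 to 0.0508). EPHB2 (chr1:22710839-22921500, plus strand), the highest EphB gene in NGP, measured 24.8, 26.0 and 23.5 and 35.3, 31.4 and 33.2 CPM in SK-N-BE2 (log2 fold change of 0.39 ± 0.09 SE, adjusted p 0.00271 by edgeR), and 57.6, 61.0 and 62.9 and 61.9, 67.8 and 60.1 CPM in NGP (log2 fold change of 0.07 ± 0.10 SE, adjusted p 0.623 by edgeR). It rose without overlap in SK-N-BE2 and overlapped in NGP.

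EPHB4 (chr7:100802565-100827523, minus strand), the receptor of EFNB2 in veins, rose in SK-N-BE2 from 6.64, 5.44 and 6.17 to 13.5, 11.02 and 14.6 CPM (log2 fold change of 1.06 ± 0.14 SE, adjusted p 2.66e-05 by edgeR). It was low in NGP, at 0.795, 0.395 and 0.0781 CPM with DMSO and 0.381, 0.463 and 0.426 CPM with STM2457, and not called. EPHB4 and its ligand EFNB2 were both higher with STM2457 in SK-N-BE2. EPHB1 rose in NGP from 0.591 ± 0.102 to 1.89 ± 0.126 CPM (log2 fold change of 1.68 ± 0.27 SE, adjusted p 0.00152 by edgeR), with 21.0% of its exon length shared with another transcript, so its reads are uncertain. EPHB6, which lacks kinase activity, had 0 reads with DMSO in both lines and 8 with STM2457 in SK-N-BE2 and 6 in NGP. With 3 reads in place of 0, the ratios were 2.69 and 2.08. They leave out the counting error of the treated reads, and a fragment can add 2 reads, so they set no lower limit. The 8 reads of SK-N-BE2 came from 1 library.

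Of the Robo receptors, ROBO1, ROBO3 and ROBO4 were called lower in SK-N-BE2 and ROBO2 was not called, where 27.8% of all genes were lower. In NGP 1 of 3 tested, ROBO2, was lower, where 22.2% of all genes were. ROBO1 (chr3:78597239-79767998, minus strand), the highest of them in both lines, measured 176, 147 and 146 CPM with DMSO and 115, 119.6 and 112 CPM after STM2457 in SK-N-BE2 (log2 fold change of -0.48 ± 0.09 SE, adjusted p 0.000519 by edgeR), all treated libraries lying below all controls. In NGP it measured 85.5, 122.8 and 126 and 144, 142 and 148 CPM (log2 fold change of 0.38 ± 0.15 SE, adjusted p 0.0701 by edgeR), where treated libraries lay above controls and the gene was called higher without DMSO replicate 1 (0.0110), in the joint fit (0.0180) and with DESeq2 (0.0466; range of adjusted p over 13 alternatives 0.0110 to 0.172). ROBO2 (chr3:75906695-77649964, plus strand) fell in NGP from 60.8, 99.2 and 92.5 to 26.3, 27.9 and 26.4 CPM (log2 fold change of -1.65 ± 0.18 SE, adjusted p 0.000218 by edgeR) and overlapped in SK-N-BE2 at 61.9, 41.2 and 46.2 and 50.5, 59.6 and 49.3 CPM (log2 fold change of 0.06 ± 0.13 SE, adjusted p 0.734 by edgeR). Their differences between lines ran in opposite directions, -0.84 for ROBO1 and 1.71 for ROBO2 (edgeR adjusted p 0.00283 and 0.000159).

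ROBO3 (chr11:124865432-124881471, plus strand), the divergent Robo that controls midline crossing, fell in SK-N-BE2 from 29.7, 27.0 and 33.03 to 14.5, 13.3 and 14.1 CPM without overlap (log2 fold change of -1.13 ± 0.10 SE, adjusted p 1.28e-06 by edgeR). It was not called in NGP, at 9.84 ± 3.17 and 7.59 ± 0.717 CPM (SD, n = 3). ROBO4 (chr11:124883691-124898500, minus strand), known from endothelium, measured 1.76, 2.90 and 2.85 and 1.07, 1.74 and 1.04 CPM in SK-N-BE2 (log2 fold change of -0.998 ± 0.28 SE, adjusted p 0.00895 by edgeR), with treated libraries below controls. This call was lost in the joint fit (edgeR adjusted p 0.0645; range over 13 alternatives 0.00306 to 0.0645). An overlapping long noncoding RNA on the other strand covers 18.0% of its exon length, so its reads are uncertain. In NGP, ROBO4 had 5 reads with DMSO and 6 with STM2457.

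The UNC5 receptors, which mediate repulsion by netrins, ranged from UNC5B, the highest member with DMSO in both lines, to UNC5D, with 14 reads over the SK-N-BE2 DMSO libraries. The netrins summed to 0.608 ± 0.273 RPKM with DMSO in SK-N-BE2 and 7.62 ± 1.92 RPKM in NGP (SD, n = 3). UNC5B (chr10:71212570-71302864, plus strand) measured 394, 373 and 368 CPM with DMSO and 279, 257 and 259 CPM after STM2457 in SK-N-BE2 (log2 fold change of -0.55 ± 0.08 SE, adjusted p 7.94e-05 by edgeR). In NGP it fell from 430.3, 582 and 503 to 248, 248 and 248 CPM (log2 fold change of -1.02 ± 0.12 SE, adjusted p 0.000332 by edgeR), and the groups overlapped in neither line. UNC5A (chr5:176810519-176880898, plus strand) rose in SK-N-BE2 from 51.5, 35.4 and 47.2 to 86.9, 85.4 and 80.6 CPM (log2 fold change of 0.88 ± 0.12 SE, adjusted p 3.22e-05 by edgeR), while in NGP it measured 91.1, 73.4 and 87.7 and 79.8, 72.4 and 74.7 CPM with overlap (log2 fold change of -0.15 ± 0.11 SE, adjusted p 0.314 by edgeR). The difference was called for UNC5A (1.04, edgeR adjusted p 0.000612). UNC5C rose in SK-N-BE2 from 305 ± 46.2 to 395 ± 22.6 CPM (log2 fold change of 0.34 ± 0.11 SE, adjusted p 0.0147 by edgeR); the call was lost in the joint fit (0.0589) and without DMSO replicate 3 (0.0625) or STM2457 replicate 2 (0.0746; range of edgeR adjusted p over 13 alternatives 0.000403 to 0.0746).

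UNC5D fell in NGP, from 5.35, 10.1 and 9.26 CPM with DMSO to 4.23, 2.78 and 4.25 CPM with STM2457 without overlap (log2 fold change of -1.13 ± 0.27 SE, adjusted p 0.0108 by edgeR). In SK-N-BE2 it had 14 reads with DMSO and 52 with STM2457 over 3 libraries each (log2 fold change of 1.84 ± 0.81 SE, adjusted p 0.0701 by edgeR), and the groups overlapped. It was called higher there in the joint fit (0.0489) and without DMSO replicate 2 (0.0253) or STM2457 replicate 1 (0.0335; range of edgeR adjusted p over 11 alternatives 0.0253 to 0.210). Summed over UNC5 receptors and DCC, the level was 94.2 ± 7.75 RPKM with DMSO and 95.2 ± 2.61 RPKM with STM2457 in SK-N-BE2, and 109 ± 12.9 and 71.0 ± 0.986 RPKM in NGP (SD, n = 3).

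Genes of the guidance pathway outside the rule were counted in the same way. Of 25 further cues and co-receptors in the files, 15 of 21 tested were called in SK-N-BE2, 12 higher and 3 lower (RGMB, DSCAML1 and CDON), and 16 of 24 in NGP, 2 higher (BOC and CXCL12) and 14 lower. That was 71.4% and 66.7% of those tested, against 54.7% and 41.7% of all genes. The median log2 fold change was 0.35 in SK-N-BE2 and -0.45 in NGP, beside -0.02 and -0.03 over all genes. CXCR4, the receptor for the chemokine CXCL12, rose in SK-N-BE2 from 5.09 ± 0.4997 to 26.4 ± 1.65 CPM (log2 fold change of 2.34 ± 0.12 SE, adjusted p 5.63e-09 by edgeR), and CXCL12 rose in NGP from 4.05 ± 0.158 to 25.9 ± 1.83 CPM (log2 fold change of 2.68 ± 0.13 SE, adjusted p 4.18e-06 by edgeR). CXCL12 also rose in SK-N-BE2, by 1.65 as a log2 value (edgeR adjusted p 0.000494). CXCR4 was not called in NGP, at -0.05 (edgeR adjusted p 0.819), and its difference between lines was 2.40 (edgeR adjusted p 1.08e-06). The cell adhesion genes DSCAM and CHL1 fell in NGP, from 4.74 ± 0.768 to 0.134 ± 0.128 CPM (log2 fold change of -5.15 ± 0.57 SE, adjusted p 0.000247 by edgeR) and from 11.3 ± 2.87 to 0.554 ± 0.228 CPM (log2 fold change of -4.35 ± 0.34 SE, adjusted p 4.09e-05 by edgeR). DSCAM and CHL1 had too few reads to test in SK-N-BE2. DSCAML1, a paralog of DSCAM, fell by 2.54 on the log2 scale in SK-N-BE2, and BOC, a co-receptor for hedgehog ligands, rose there by 1.28 (edgeR adjusted p 1.83e-08 and 6.68e-07). Both were also called in NGP, DSCAML1 at -1.67 and BOC at 1.68 (edgeR adjusted p 0.000477 and 2.92e-05).

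Of 50 intracellular transducers of guidance signals, 30 were called in SK-N-BE2, 26 higher and 4 lower, and 21 of 48 tested in NGP, 16 higher and 5 lower. These shares, 60.0% and 43.8%, were near the 54.7% and 41.7% of all genes. The directions were not: called transducers were mostly higher, while calls over all genes were split more evenly. For SK-N-BE2 the all-gene shares were 26.9% higher and 27.8% lower, and for NGP they were 19.4% and 22.2%. The transducers had a median log2 fold change of 0.28 (SK-N-BE2) and 0.13 (NGP), where all genes had -0.02 and -0.03. DPYSL4, a collapsin response mediator of semaphorin signalling, rose in both lines, from 27.5 ± 2.86 to 58.7 ± 0.496 CPM in SK-N-BE2 and from 25.3 ± 3.94 to 46.4 ± 6.70 CPM in NGP (log2 fold change 1.06 and 0.88, edgeR adjusted p 9.18e-07 and 0.00245). DPYSL5, of the same family, and TRIO, a signalling protein downstream of DCC, rose in SK-N-BE2 by 1.21 and 1.13 (edgeR adjusted p 8.73e-07 and 1.14e-06). ABLIM1, an actin-binding protein, rose in both lines, by 1.04 in NGP and in SK-N-BE2 by 0.52 (edgeR adjusted p 0.00302 and 0.000683). MICAL2, an actin-oxidising enzyme, fell in NGP by 0.87 with overlapping groups (edgeR adjusted p 0.0445); this call was lost without any of DMSO replicates 2 and 3 and STM2457 replicates 1, 2 and 3 (range of adjusted p over 13 alternatives 2.78e-05 to 0.138). In SK-N-BE2, MICAL2 rose by 0.49 (edgeR adjusted p 0.00134), a call lost in the joint fit (0.0834; range 0.000101 to 0.0834), and the difference between lines was 1.37 (edgeR adjusted p 0.00686).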

How the data were processed

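Titles gave each library its line, treatment and replicate number. Deposited were raw read counts per gene, which the authors made with featureCounts 2.0.5, per the file headers, on exons of protein-coding genes of GENCODE 33 on GRCh38, grouped by gene name, in paired mode without counting of pairs and without strand. A fragment can therefore add 2: 72.1% to 75.4% of counts from 1 to 20 were even. The submitters' processing notes name FastQC 0.11.5, Trimmomatic 0.36, HISAT2 2.1.0 and Subread 1.5.3. Libraries were SMART cDNA of polyadenylated RNA, per the labels' protocols.

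Each line was fitted with the quasi-likelihood test of edgeR 4.0.16 in R 4.3.3, after filterByExpr at a minimum count of 10 and TMM scaling, with Benjamini-Hochberg adjustment over all genes tested, 14013 in SK-N-BE2, 13610 in NGP and 14731 for the difference, with a threshold of 0.05. Scaling used no spike-in, so changes are relative. CPM and RPKM used TMM factors over 12 libraries and the deposited gene lengths. Standard errors came from the fold change and its F statistic. The members, the lists, the tests and the naming rule were chosen with earlier results of these data known. Values in every library are given for the 8 largest called rises and falls per line with at least 2 CPM in the higher group, the 6 largest called differences, and the highest member of each family by RPKM with DMSO. Of the other lists the 3 largest called changes per line are named. SLIT2, EFNA4, NTN4, NTN5, EPHA6, EPHA10, PLXNA2, EPHB1 and UNC5C lie outside this rule, and their levels were added after the values were seen.

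Alternatives were DESeq2 size factors within edgeR, a mean of at least 1 CPM, no filter, DESeq2 1.42.0, leaving out each library, the replicate number as a block, a joint fit of 12 libraries and counts halved and rounded up. Ranges of adjusted p over alternatives include that of DESeq2. Exons were compared with other genes of GENCODE 44, and members with over 10% shared exon length are called uncertain. All 4 printed promoter windows match hg38. Replicates of a group differed beyond sampling noise (chi-square per degree of freedom 2.77 to 92.6), so each was kept. In a test on simulated counts, 200 genes were moved by 1 on the log2 scale. Of those that passed the filter again, edgeR called 86.3% for SK-N-BE2 (13904 genes tested), 74.7% for NGP (13497) and 61.1% for the difference (14526). False calls made up 7.10%, 2.63% and 3.20% of its calls. The real fits called 54.7%, 41.7% and 30.9% of genes, far more than 200, so these rates may not hold for the real data. Limits from a count of 0 and intervals of ratios treat reads as independent and cover counting error only. Libraries held 47242379 to 58159937 reads.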

Additional observations from a re-analysis of the deposited data

Results flagged for a closer look

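The responses of the lines differed, by the contrast of 4 group means over all 12 libraries, for the 31 members given here as the log2 response in SK-N-BE2 minus that in NGP. Each has an edgeR adjusted p under 0.05, and line, dose and sequencing run cannot be told apart in any of them. Among ligands more positive in SK-N-BE2, the difference was 2.03 for EFNA1, 0.94 for EFNB2, 1.86 for EFNB3, 2.12 for SLIT1, 1.60 for SLIT2, 1.31 for SEMA3A and 1.19 for SEMA3D. Ligands more positive in NGP were SEMA3F at -0.72, SEMA3G at -2.36, SEMA5B at -2.31, SEMA6C at -0.60, SEMA6D at -0.75, SEMA7A at -1.01, SLIT3 at -1.37 and EFNB1 at -1.08.

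Receptors more positive in SK-N-BE2 were UNC5D at 2.98, EPHA10 at 2.81, EPHA4 at 1.77, ROBO2 at 1.71, NRP2 at 1.59, EPHA6 at 1.496, EPHA2 at 1.08, UNC5A at 1.04, PLXNA2 at 0.93 and UNC5B at 0.48. The difference of UNC5D had an SE of 0.82. Its response in SK-N-BE2 was not called and rested on 14 reads with DMSO and 52 with STM2457. Those more positive in NGP were PLXNA4 at -2.08, EPHB3 at -2.03, EPHB1 at -1.44, EPHA7 at -0.94, ROBO1 at -0.84 and ROBO3 at -0.75.

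For 4 of the 31, leaving out a library ended the call. UNC5B was not called without SK-N-BE2 DMSO replicate 3 (edgeR adjusted p 0.0520) or STM2457 replicate 1 (0.0503), over a range of 0.000568 to 0.0520. SEMA6C was not called without any of SK-N-BE2 DMSO replicates 1 and 3, SK-N-BE2 STM2457 replicates 2 and 3, NGP DMSO replicate 3 and NGP STM2457 replicates 1 and 2 (edgeR adjusted p 0.0542 to 0.0839 without them; range over its alternatives 0.0101 to 0.0839). EPHB1 was not called with a replicate block or without any of SK-N-BE2 DMSO replicates 2 and 3, SK-N-BE2 STM2457 replicate 2, NGP DMSO replicate 2 and NGP STM2457 replicates 1 and 3 (0.0521 to 0.0697 without them; range 0.0132 to 0.0697). ROBO3 was not called without any of SK-N-BE2 DMSO replicate 3, SK-N-BE2 STM2457 replicates 1, 2 and 3, NGP DMSO replicates 2 and 3 and NGP STM2457 replicates 1 and 2 (0.0612 to 0.0875 without them; range 0.000106 to 0.0875).

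Conversely, the difference passed in some alternatives for members where it was not called over all libraries. Beside SEMA3C, SEMA5A and NRP1, these were SEMA4A without SK-N-BE2 DMSO replicate 1 (edgeR adjusted p 0.0309), PLXND1 without NGP DMSO replicate 1 (0.0347), EPHB4 without NGP DMSO replicate 3 (0.00731), SEMA6B without SK-N-BE2 STM2457 replicate 3 (0.0301) or with DESeq2 (0.00739), EPHB2 without NGP DMSO replicate 1 (0.0212) or NGP STM2457 replicate 2 (0.0424), with a mean of at least 1 CPM (0.0495) or with DESeq2 (0.0281), and EPHA5 without SK-N-BE2 DMSO replicate 1 (0.0462) or NGP DMSO replicate 3 (0.00995) or with DESeq2 (0.0420).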

How the results depend on the processing

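No member's called change reversed under any alternative run. Of the members called, 28 of 33 in SK-N-BE2, 23 of 30 in NGP and 27 of 31 for the difference were called in every alternative that could be fitted; of those not called, 21 of 28, 25 of 32 and 24 of 33 were never called. Leaving out each library in turn gave 30 to 38 members called in SK-N-BE2, 23 to 35 in NGP and 27 to 35 for the difference, and the other alternatives gave 32 to 33, 28 to 34 and 30 to 34. Members called in both lines in the same direction numbered 8 to 12 over all alternatives, and in opposite directions 4 to 8. Over all genes, the count called higher in NGP ranged from 1759, without STM2457 replicate 1, to 3805, without DMSO replicate 1, beside 2644 with all libraries; the cause was not tested. Deviations from the group means of same-numbered libraries correlated at -0.16 to 0.15 in SK-N-BE2 and -0.211 to 0.0965 in NGP. Those of differently numbered libraries correlated at -0.400 to 0.373 and -0.242 to 0.266. With so few libraries, these values cannot settle whether the replicate numbers pair them. With the replicate block, 33, 28 and 30 members and 7522, 5026 and 4025 genes were called in SK-N-BE2, NGP and for the difference. Depth limits the members with few reads (NTN1, DCC, EPHA3, SEMA3E and EPHB6).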
